A study of Homo sapiens with 31 samples.

Results

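CTBP2 peaks of MUTZ3 cells that carried a retroviral 4xPLASS construct were set against the CTBP2 peaks of unmodified MUTZ3 cells. The comparison took 3 of the 31 samples of the series and 3 of the 13 samples with a peak list, namely 1 CTBP2 library of unmodified cells with 16836 peaks and 2 CTBP2 libraries of 4xPLASS cells with 6688 peaks (replicate 1) and 31310 peaks (replicate 2). MUTZ3 is a cell line of acute myelomonocytic leukemia with an inversion of chromosome 3 that drives EVI1 expression. The unmodified cells are labelled WT and untreated, and the 4xPLASS cells carried p50MX-3xFLAG-3xNLS-4xPLASS-Zeo, a retroviral vector with Zeocin resistance. The construct joins 4 repeats of the EVI1 stretch around the CTBP-binding PLDLS motif, human and mouse, in each of which the motif was changed to PLASS. It is the study's control for the 4xPLDLS inhibitor, whose own retroviral CTBP2 libraries were not analysed here. The same CTBP2 antibody was used for all 3 libraries. The labels give a single crosslink for the unmodified CTBP2 library and a double crosslink with DSG for both 4xPLASS libraries, although the inputs of the 4xPLASS cells are labelled as single crosslink and the study's sample table lists a single crosslink for these libraries too. Whether the crosslink differed is thus unsettled, and the peptide, the experiment and, if it differed, the crosslink cannot be told apart in any difference between these lists.

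CTBP2 is a corepressor without a DNA-binding domain of its own. It reaches chromatin through transcription factors that carry a short motif of the PXDLS type, among them EVI1, the zinc finger product of MECOM, and ZEB1 and ZEB2, and it brings histone-modifying enzymes such as histone deacetylases and the demethylase LSD1. In leukemia with rearranged 3q26, EVI1 is expressed at high level and holds cells in a progenitor state. The control peptide carries a broken motif, and the comparison asks how far the CTBP2 map of control-peptide cells resembles that of cells without a peptide.

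An unmodified CTBP2 peak is called kept where it overlaps a peak of both 4xPLASS libraries by at least 1 bp, and absent where it overlaps a peak of neither. A consensus site is a merged interval called in both 4xPLASS libraries, and it is called added where no unmodified CTBP2 peak overlaps it. Of the 16836 unmodified peaks, 5037 were kept in both 4xPLASS libraries (29.9%), 8294 were called again in replicate 2 only, 233 in replicate 1 only, and 3272 were absent from both (19.4%). Of 5700 consensus sites, 673 were added (11.8%) and 5027 overlapped an unmodified peak. The strongest CTBP2 sites of unmodified cells were called again in control-peptide cells. The sites that were absent were weaker and narrower and overlapped EVI1 peaks less often than kept ones. The added sites were weak, and a larger share of them than of the kept ones lay at promoters. Among consensus sites of like strength, that share was not always higher for added sites than for the others.

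Reference sequence is shown around the summits of 2 of the strongest kept, absent and added sites each, since these sites stand at the ends of the comparison. Each line gives the plus strand of GRCh37 (hg19), centred on the summit in the unmodified list for kept and absent sites and in replicate 2 for added sites. Capitals mark every match, on either strand, to 7 motif words that were searched, namely AGATAA of the GATA type, GGAAGT of the ETS type, TGTGGT of the RUNX type, CAGGTG as the E-box bound by ZEB factors, CCACCC of the KLF type, GATGAG, and TGACTCA of the AP-1 type. None of these words is the reverse complement of another.
Kept, DBNDD1, chr16:90098503-90098603: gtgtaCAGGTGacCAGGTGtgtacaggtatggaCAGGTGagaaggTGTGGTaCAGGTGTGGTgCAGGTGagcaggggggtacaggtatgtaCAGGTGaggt
Kept, FABP6, chr5:159624871-159624971: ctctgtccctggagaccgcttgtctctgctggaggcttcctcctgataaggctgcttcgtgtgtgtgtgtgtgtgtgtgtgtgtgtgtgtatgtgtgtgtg
Absent, RFTN1, chr3:16562582-16562682: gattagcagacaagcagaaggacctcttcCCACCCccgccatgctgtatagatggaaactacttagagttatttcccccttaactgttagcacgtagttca
Absent, TAGAP, chr6:159463780-159463880: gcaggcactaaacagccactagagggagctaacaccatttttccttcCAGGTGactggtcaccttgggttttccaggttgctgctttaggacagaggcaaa
Added, TMEM87B, chr2:112761959-112762059: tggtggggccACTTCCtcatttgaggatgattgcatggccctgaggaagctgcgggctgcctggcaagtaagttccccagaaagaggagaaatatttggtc
Added, FBLN1, chr22:45950795-45950895: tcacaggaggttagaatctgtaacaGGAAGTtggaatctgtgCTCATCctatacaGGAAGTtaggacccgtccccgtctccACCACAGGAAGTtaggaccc
The strongest kept site holds a tandem array with 6 copies of CAGGTG and the next ends in a run of GT repeats. The added site near FBLN1 holds 3 copies of GGAAGT in a row of near-identical units.

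The libraries differed first in how many of the unmodified peaks they held. Replicate 1 held 5270 of them (31.3%) and replicate 2 held 13331 (79.2%), so the mean over both libraries was 55.2% ± 33.9 (SD, n = 2). In the other direction, 81.0% of the 6688 peaks of replicate 1 and 42.3% of the 31310 peaks of replicate 2 overlapped an unmodified peak. Replicate 1 was for the most part a subset of replicate 2, with 88.7% of its peaks found there. The kept class is thus set by replicate 1, the shorter list, and the absent class by replicate 2. Depth is unknown because read counts are not part of the lists, and with 1 unmodified library no test between the cells could be made. The 95% Wilson intervals given below cover counting of peaks and not the spread between libraries.

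Cut to the 6688 peaks with the highest −log10 p in each list, the 2 libraries came closer together. In that setting 57.1% of the unmodified peaks overlapped replicate 1 (95% interval 55.9 to 58.3%) and 64.9% overlapped replicate 2 (63.7 to 66.0%). The same step applied to CTBP2 lists of untreated MUTZ3 cells with an inducible 4xPLDLS construct, made with DSG and the same antibody, gave 44.9% and 55.9%. In MOLM1, a line of chronic myeloid leukemia in blast crisis that here carried an uninduced short hairpin against EVI1, it gave 36.1%. Set against all 16836 unmodified peaks, however, the 6688 strongest peaks of replicate 1 covered 31.3% and those of replicate 2 covered 36.0%, against 34.3% and 35.3% for the inducible lists, so the order of the libraries depended on the part of the unmodified list they were compared with.

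Ranking by fold enrichment, the pileup at the summit over the local background as written by the peak caller, separated kept from absent peaks. All 100 strongest unmodified peaks were kept in both libraries, as were 495 of the strongest 500 and 943 of the strongest 1000, and replicate 2 held all 1000. Median fold enrichment in the unmodified list was 7.20 for kept peaks, 5.14 for peaks in replicate 2 only, 5.14 for peaks in replicate 1 only and 4.65 for absent peaks. Fold enrichments of different libraries stand side by side here without scaling, since their depths are unknown. By these medians, kept peaks were 1.55 times as strong as absent ones. The fold enrichment of kept peaks had quartiles of 5.42 and 10.0, that of absent peaks 4.13 and 5.34, so the upper quartile of the absent class lay below the lower quartile of the kept class. The best rank of an absent peak was 1108, with a fold enrichment of 10.9.

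The unmodified list was then divided by fold enrichment into 10 bins of equal size, bin 1 being the strongest. The kept share fell from 85.9% in bin 1 to 57.9%, 38.4% and 25.9% in the next ones, and stayed between 11.8% and 21.7% in the other 6. Replicate 2 held 99.6% of bin 1 and never less than 65.1%. The absent share was 0.297% in bin 1, 5 of 1683 peaks, and reached 33.3% in bin 9. It did not keep climbing to the end of the list. In bin 10, with fold enrichment of 3.82 or less, replicate 2 held 72.5% of the peaks and 26.3% were absent.

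**Figure D1:**
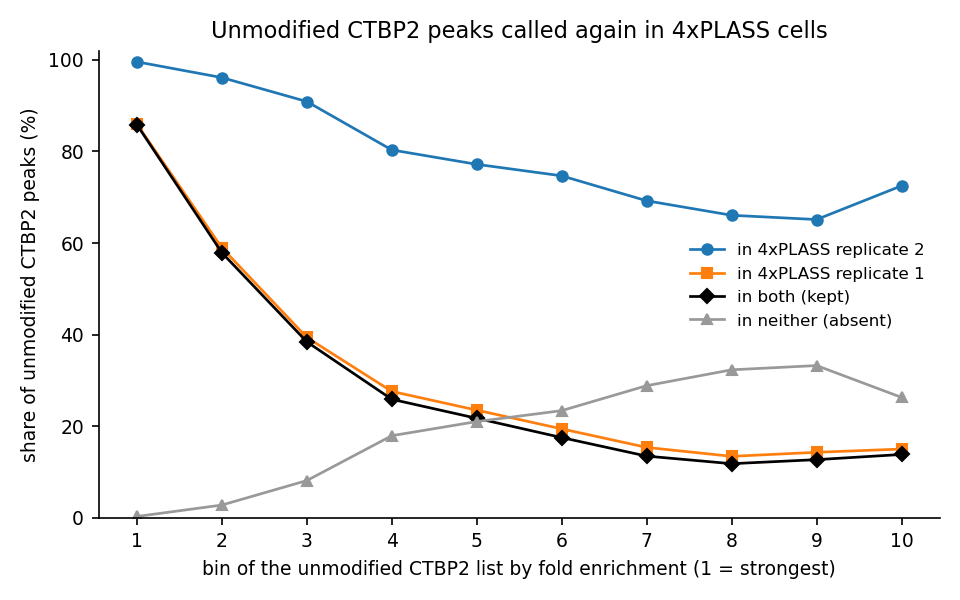
Share of unmodified CTBP2 peaks (%, y axis) called again in 4xPLASS replicate 1, in replicate 2, in both or in neither, for each of 10 bins of the unmodified list by fold enrichment (x axis, 1 = strongest). Replicate 2 stays between 65.1% and 99.6%, while the share in both falls from 85.9% to 11.8% and follows replicate 1.

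Order within the kept set was shared in part. Over the 5037 kept peaks, ranks in the unmodified list correlated with those in replicate 1 with a Spearman coefficient of 0.45 and with those in replicate 2 at 0.58, and the 2 replicates with each other at 0.38. These are correlations across peaks of the same genome, and the peaks share copy number and local background. Of the strongest 1000 unmodified peaks, 528 were among the strongest 1000 of replicate 1, 547 among those of replicate 2, and 350 among both. Summits moved little, with a median distance to the unmodified summit of 33 bp in replicate 1 and 29 bp in replicate 2.

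The 10 strongest kept sites were outside promoters and all of them were EVI1 sites. None had its summit within 1 kb of a protein-coding TSS, all 10 overlapped an EVI1 peak of unmodified MUTZ3, and all 10 were called in both untreated inducible CTBP2 lists. Strong peaks in general were much like this. Over all peaks of bin 1, 7.55% were within 1 kb of a TSS and 85.9% had EVI1, and the 2 inducible CTBP2 lists held 86.8% and 97.1% of all kept peaks. In the unmodified list their widths ran from 325 to 1478 bp. The first was at chr16:90098026-90099444 in an intron of GAS8, a gene of the ciliary dynein regulatory complex, 12255 bp upstream of the TSS of DBNDD1. Its fold enrichment was 71.0 in unmodified cells, 31.8 in replicate 1 and 71.2 in replicate 2, where it ranked 1, 9 and 1. The second lay in an intron of FABP6, an ileal bile acid-binding protein, at chr5:159624462-159625336 and had 60.8, 11.4 and 45.7. It ranked 2 and 4 in unmodified cells and replicate 2 but 224 in replicate 1, and was the one among the 10 without a MOLM1 peak.

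An intergenic site at chr6:167806172-167807050, 68043 bp downstream of the TSS of TTLL2 (a tubulin tyrosine ligase-like gene), was more even, with fold enrichments of 54.2, 52.0 and 58.8 and ranks of 3, 2 and 2. A site in an intron of ZBTB46, a zinc finger gene of classical dendritic cells, had 49.0 in unmodified cells, 43.9 in replicate 1 and 24.8 in replicate 2. At 1157 bp upstream of GRK1, a G protein-coupled receptor kinase, the values were 42.8, 30.7 and 33.3. The remaining 5 sites lay nearest to KCNU1, C1orf159, HELT, SLC7A10 (an amino acid transporter) and FBRSL1, with fold enrichments of 38.1 to 42.8 in unmodified cells and ranks of 4 to 46 in replicate 1 and 17 to 808 in replicate 2. The strongest peak of replicate 1, in an intron of DOCK6 (chr19:11319764-11322571, fold enrichment 58.5), ranked 3 in replicate 2 at 51.2 and was shared with the unmodified list.

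The 10 strongest absent peaks had a median width near that of the whole list and were not consistently present in other CTBP2 lists. Their widths were 199 to 328 bp with a median of 224 bp, against medians of 231 bp over the list and 177 bp over all absent peaks. The narrowest peak of the list had 145 bp. Their ranks were 1108 to 2066, within bins 1 and 2, where the median widths of all peaks were 421 and 319 bp. An EVI1 peak of unmodified cells lay at 5 of them, both untreated inducible CTBP2 lists held 3, and neither held 5. The MOLM1 CTBP2 list held 6, and 9 of the 10 were in at least 1 of the 6 other lists. Over all 3272 absent peaks, 19.1% had such an EVI1 peak, 23.7% were in neither inducible CTBP2 list and 41.9% were in the MOLM1 list. Of all absent peaks, 13.4% were in none of the 6 other lists. The strongest was 7099 bp upstream of RFTN1, which encodes the lipid raft protein raftlin, at chr3:16562486-16562813 with a fold enrichment of 10.9. It had an EVI1 peak and was called in the second of the inducible CTBP2 lists. The next lay in an intron of TAGAP, a GTPase-activating protein of T cells (chr6:159463732-159463937, 10.1), and had no EVI1 peak but a peak in both inducible CTBP2 lists and in MOLM1. The third fell in an exon of MEIS1, a homeobox cofactor of HOX proteins in stem cells and leukemia (chr2:66795873-66796099, 9.92), and was found in none of the 6 other lists. The others were nearest to NCAM2, NSFL1C, USP12, ENTPD2 (an ectonucleotidase), TBC1D4, HIF1A (the oxygen-regulated transcription factor) and GJE1, with fold enrichments of 8.77 to 9.92.

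Kept peaks were also wider. Median width in the unmodified list was 336 bp for kept peaks (quartiles 247 and 472 bp), 220 bp for those in replicate 2 only, 204 bp for those in replicate 1 only and 177 bp for absent peaks (quartiles 151 and 215 bp). The ratio of kept to absent was 1.90. Width follows strength, so both classes were set side by side within each bin. Kept peaks were the wider ones in all 10 bins, by 1.37 times in bin 10 to 2.02 times in bin 1, where the absent class had 5 peaks. At the same sites the peaks of replicate 1 had a median width of 206 bp and those of replicate 2 of 394 bp, against 336 bp in unmodified cells.

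**Figure D2:**
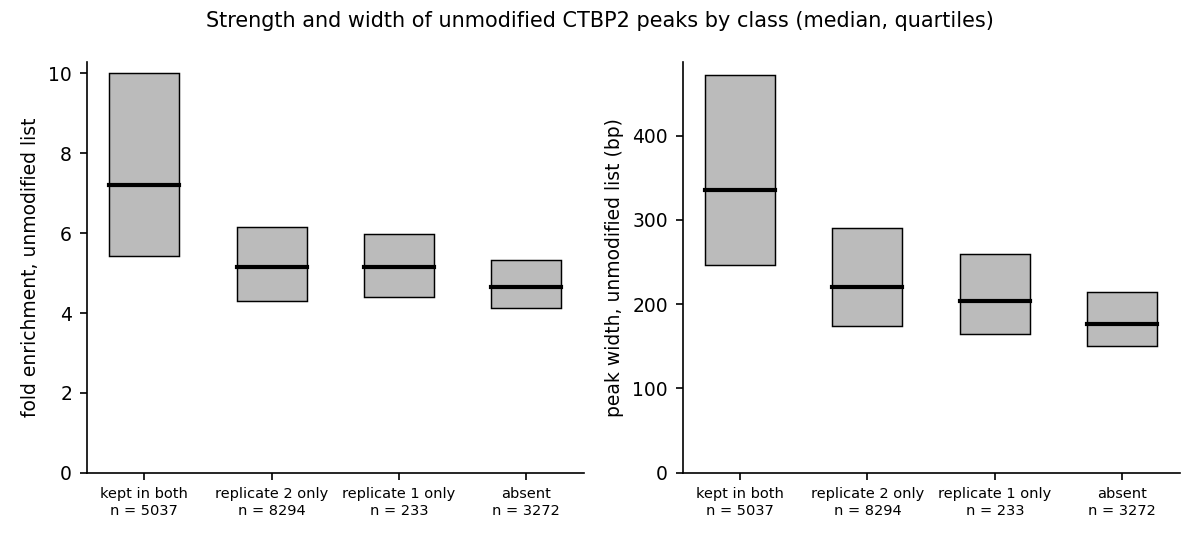
Fold enrichment (left, y axis) and width in bp (right, y axis) of unmodified CTBP2 peaks by whether 4xPLASS replicates called them again; boxes span the quartiles and the line is the median. Kept peaks have medians of 7.20 and 336 bp, absent peaks 4.65 and 177 bp.

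EVI1 peaks at the same place, in lists that took no part in defining the classes, differed in share between them. An EVI1 peak of unmodified MUTZ3 overlapped 77.9% of kept peaks (95% interval 76.7 to 79.0%), 55.2% of those in replicate 2 only (54.1 to 56.3%), 24.9% of those in replicate 1 only (19.8 to 30.8%) and 19.1% of absent peaks (17.8 to 20.5%). Seen from the other side, 42.7% of the 9181 unmodified CTBP2 peaks with EVI1 were kept and 6.80% were absent, against 14.6% and 34.6% of the 7655 without EVI1. Replicate 2 by itself held 92.6% of those with EVI1 and 63.1% of those without. The intervals of kept and absent peaks did not overlap.

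Peaks with EVI1 were stronger in unmodified cells, with a median fold enrichment of 5.76 against 4.93, and a difference was present within every bin. Kept shares with and without EVI1 were 88.1% and 72.2% in bin 1, 63.2% and 43.5% in bin 2, and 20.1% and 8.23% in bin 10. The gap was between 11.8 and 22.8 percentage points throughout. Absent shares in bin 10 were 12% with EVI1 and 39.1% without.

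**Figure D3:**
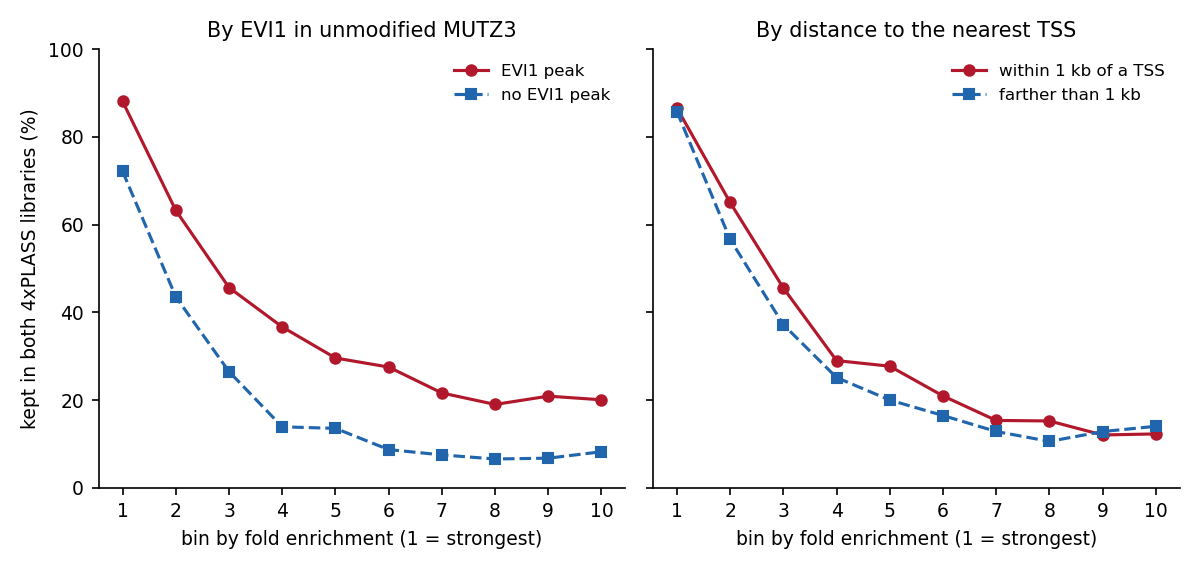
Share of unmodified CTBP2 peaks kept in both 4xPLASS libraries (%, y axis) by bin of fold enrichment (x axis, 1 = strongest), split by an EVI1 peak in unmodified MUTZ3 (left) and by a summit within 1 kb of a protein-coding TSS (right). The EVI1 lines stay 11.8 to 22.8 percentage points apart, whereas the promoter lines differ by 8.41 at most and cross in bin 9.

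In the 5 other lists, too, kept peaks had the highest share and peaks in replicate 2 only the next, while the order of absent peaks and those in replicate 1 only varied. The CTBP2 lists of untreated inducible MUTZ3 cells held 86.8% and 97.1% of kept peaks and 61.3% and 67.0% of absent peaks. EVI1 lists of the same untreated cells held 92.5% and 84.8% of kept peaks and 61.0% and 59.7% of absent ones. The MOLM1 CTBP2 list held 83.5% and 41.9%. These lists are longer, with 51389 to 72214 peaks, than the EVI1 list of unmodified cells with 21505. Of the absent peaks, 776 (23.7%) were in neither untreated inducible CTBP2 list and 439 (13.4%) in none of the 6 other lists, against 121 (2.40%) and 46 (0.913%) of the kept peaks. Most absent peaks thus overlapped a CTBP2 peak of untreated inducible MUTZ3 cells.

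**Figure D4:**
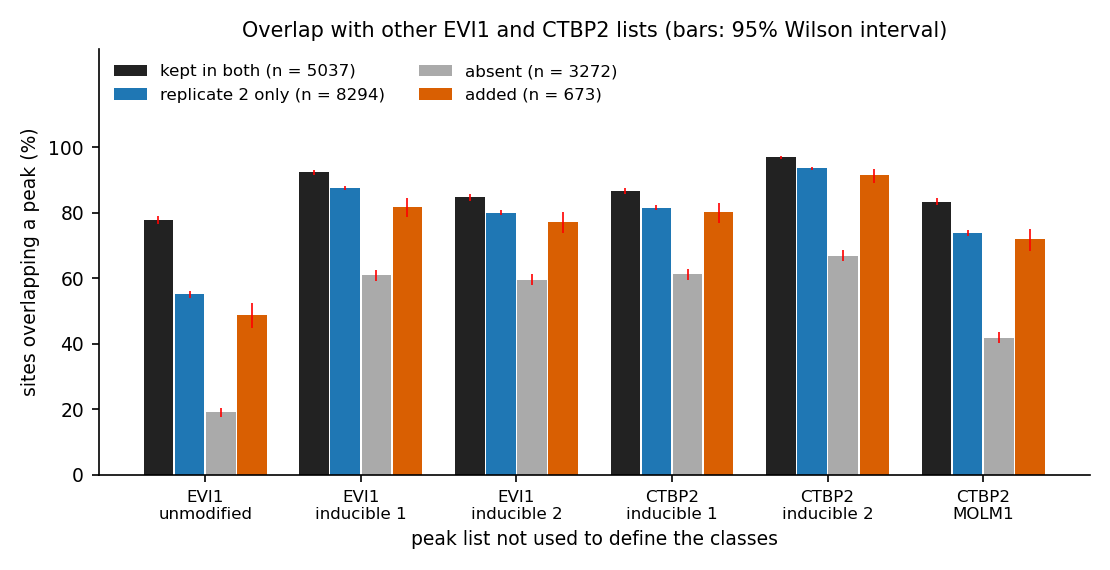
Share of sites (%, y axis) overlapping a peak of 6 lists that did not define the classes (x axis), for kept peaks, peaks in replicate 2 only, absent peaks and added consensus sites; error bars are 95% Wilson intervals. Absent peaks are lowest in every list, from 19.1% with EVI1 of unmodified cells to 67.0% with CTBP2 of inducible replicate 2, and added sites lie between them and the kept peaks.

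Promoters showed a small difference whose direction depended on strength. Summits lay within 1 kb of a protein-coding TSS in 18.2% of kept peaks (95% interval 17.2 to 19.3%), 22.5% of those in replicate 2 only, 16.7% of those in replicate 1 only and 22.4% of absent peaks (21.0 to 23.9%). Median distance to the TSS was 22912 bp for kept and 17296 bp for absent peaks. Promoter peaks were weak ones in unmodified cells, with 7.55% of bin 1 and 29.3% of bin 10 at promoters. Within bins the order was turned, and promoter peaks were kept more often than distal ones in bins 1 to 8, by 0.817 to 8.41 percentage points, and less often in bins 9 and 10, by 0.780 and 1.74 points. Distances of 10 to 100 kb were the commonest in every class, with 44.1% of kept and 41.9% of absent peaks. Exons held 10.4% of kept and 13.0% of absent summits, introns 46.1% and 48.0%.

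EVI1 and promoter position could be read together. Among promoter peaks with EVI1, 36.6% were kept and 9.48% absent, and among promoter peaks without EVI1, 13.3% and 33.6%. Farther than 1 kb from a TSS the corresponding shares were 44.3% and 6.07% with EVI1 and 14.9% and 34.9% without. The EVI1 difference was present in both positions and was several times the promoter difference in either EVI1 group.

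The 673 added sites were weak in the 4xPLASS lists as well. In replicate 1 their median fold enrichment was 4.57, against 5.25 for consensus sites with an unmodified peak, and in replicate 2 it was 5.51 against 8.95. They stood at a median of 63.1% of the way down the list of replicate 1 and 43.7% down that of replicate 2, where the shared sites stood at 43.6% and 12.9%. Merged over both libraries, added sites had a median width of 265 bp and shared sites of 407 bp. With the consensus sites in 5 bins by fold enrichment in replicate 2, the added share was 0.263% in bin 1, 3 of 1140 sites, and 30.1% in bin 5. By replicate 1 it was 1.75% in bin 1 and 15 to 16.7% in bins 3 to 5. The median gap to the nearest unmodified peak was 21311 bp, and 16.6% lay within 1 kb of one.

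A larger share of added sites than of kept peaks lay at promoters. Summits within 1 kb of a TSS made up 27.6% of added sites (95% interval 24.4 to 31.1%) against 18.2% of kept peaks and 18.4% of shared consensus sites. Their median TSS distance was 13726 bp. Within bins by strength in replicate 2 the promoter shares of added and shared sites were close, 13.8% and 13.1% in bin 2, 14.6% and 18.1% in bin 3, 26.7% and 26.6% in bin 4, and 32.9% and 34.1% in bin 5, with 3 added sites in bin 1. Within bins by strength in replicate 1 the direction varied. Added sites had the lower share in bins 1 and 2, with 0% against 10.7% (20 added sites) and 10.5% against 17.0% (105 added sites). They had the higher share in bins 3 to 5, the last with 37.4% and 24.5%. EVI1 peaks of unmodified cells overlapped 48.7% of added sites (45.0 to 52.5%), fewer than the kept peaks and more than the absent ones, and the EVI1 lists of untreated inducible cells overlapped 81.9% and 77.3% of added sites. In bins 2 to 5 by replicate 2 they had EVI1 less often than shared sites, from 58.6% and 87.0% in bin 2 to 38.2% and 57.7% in bin 5. The untreated inducible CTBP2 lists held 80.2% and 91.5% of added sites, beside 86.0% and 96.6% of all 5700 consensus sites. MOLM1 held 71.9%, beside 82.7%. Of the 673 added sites, 12 were in none of the 6 other lists (1.78%), beside 57 of the 5700 (1.00%). Nearly all consensus sites, added or not, thus had a CTBP2 or EVI1 peak in at least 1 other library.

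The 10 best-ranked added sites had ranks of 560 to 1449 in replicate 1 and 1020 to 6777 in replicate 2, and none lay within 1 kb of a TSS. First was a site in an intron of MERTK, the receptor kinase of apoptotic cell clearance, at chr2:112761851-112762144, with fold enrichments of 7.87 in replicate 1 and 10.1 in replicate 2 and TMEM87B as the gene with the nearest TSS. The site near FBLN1, which encodes the matrix protein fibulin, lay in an intron of that gene at chr22:45950527-45950986 with 7.31 and 11.2. Upstream of SCARB1, the HDL receptor, the values were 7.15 and 11.5, and in an intron of LRP1 near STAT6, the transcription factor downstream of interleukin 4, they were 6.56 and 12.8. A site 1255 bp downstream of the TSS of ALDOA, the glycolytic aldolase, had 7.07 and 9.96 and lay 847 bp from an unmodified peak. The rest were nearest to NUFIP1, HMGN3 (a nucleosome-binding protein), LRRC74A, SH3RF2 and CCDC32. EVI1 peaks of unmodified cells were present at 7 of the 10, and both untreated inducible CTBP2 lists held 9.

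Peaks of 1 4xPLASS library alone were many in replicate 2 and few in replicate 1. Replicate 2 had 17347 peaks in neither other list, with a median fold enrichment of 4.69 and an EVI1 peak at 29.5%, and replicate 1 had 508 with 4.57 and 15.4%. The untreated inducible CTBP2 lists held 74.3% and 77.3% of the former and 59.6% and 57.7% of the latter.

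Sequence around the summits set the classes apart mainly by the ETS-type word. In windows of 201 bp centred on the summit, GGAAGT on either strand occurred in 41.3% of kept peaks (95% interval 39.9 to 42.7%), 36.8% of those in replicate 2 only, 24.0% of those in replicate 1 only, 26.3% of absent peaks (24.8 to 27.8%) and 33.6% of added sites (30.1 to 37.2%). It occurred in 17.8% of windows of that length at all protein-coding TSSs and in 10.9% of windows 10 kb downstream of every unmodified summit. Among the weakest 20% of the unmodified list the shares were 37.3% for kept and 23% for absent peaks. The RUNX-type TGTGGT was found in 27.5% of kept and 17.9% of absent peaks, against 8.06% of TSS windows and 14.5% of the downstream windows. Its difference was seen among peaks with EVI1 (30.2% kept, 17.8% absent) but not among those without (17.9% and 18.0%). Among the weakest 20% of the list the shares were 20.6% and 14.8%. Among the strongest 20%, with 52 absent peaks, they were 32.1% and 30.8%.

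The other words differed by fewer percentage points. AGATAA was present in 15.2% of kept and 12.5% of absent peaks, against 4.57% of TSS windows and 11.7% of downstream windows. GATGAG was in 16.4% and 14.8%, against 6.79% and 10.3%. TGACTCA was in 5.25% and 3.37%, against 2.63% and 3.13%. CCACCC was in 22.3% and 22.2%, below the TSS windows (25.8%) and above the downstream ones (15.2%). Median GC content was 53.2% in kept, 51.7% in absent and 55.2% in added windows. A match describes these letters and is not a binding site.

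Over all peaks CAGGTG, the E-box of ZEB factors, did not separate kept from absent ones, with 18.1% and 18.6% against 15.2% of TSS windows and 19.4% of the downstream windows. Without EVI1 it was in 23.3% of kept (20.9 to 25.9%) and 18.4% of absent peaks (17.0 to 20.0%). With EVI1 it was in 16.7% (15.5 to 17.9%) and 19.3% (16.4 to 22.6%). CAGGTG also stood out in replicate 1. Of the 233 unmodified peaks called again in replicate 1 only, 32.6% held it (26.9 to 38.9%). Arrays with 3 or more copies in the window were found at 24 of these 233 peaks (10.3%), at 113 kept peaks (2.25%), at 26 of those in replicate 2 only (0.314%), at 41 absent peaks (1.25%) and at 55 of 20141 TSS windows (0.273%). Among the 100 strongest peaks of each list, 28 in replicate 1, 17 in unmodified cells and 12 in replicate 2 held such an array, like that near DBNDD1 shown above. Among kept peaks the arrays were at 5.85% of those without EVI1 and 1.23% of those with it.

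The peaks were assigned by the nearest TSS to 7608 of the 20176 protein-coding genes of the annotation. For 2966 of the 7608 the strongest unmodified peak was kept in both 4xPLASS libraries (39.0%). For 1210 it was absent from both (15.9%). Of 755 genes with at least 5 unmodified peaks, 2 had all of them kept (0.265%) and 91 had none kept (12.1%), and the median gene had 33.3% kept. The 2 were POMP, a proteasome assembly factor, and ZNF710, a zinc finger gene, with 5 peaks each. Among genes with none kept, the homeobox gene IRX3, the Notch coactivator MAML2 and ASPH had 9 peaks each, and TGFBR2, KCTD12, CELF4, JUNB, PDE9A and ZEB1 had 8 each. S1PR1, the sphingosine phosphate receptor of lymphocyte egress, had 7. Most of these peaks were still in replicate 2, which held 8 of 9 at IRX3, all 8 at JUNB, 7 of 8 at ZEB1 and CELF4, 6 of 9 at MAML2 and ASPH, and 5 of 8 at TGFBR2. None of the 755 genes had all of its peaks absent from both libraries.

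Genes of the EVI1 and CTBP complex themselves carried CTBP2 peaks of moderate strength. Of 16 genes of this list, 10 had an unmodified peak, beside 7608 of 20176 protein-coding genes. The strongest was kept for 3, in replicate 2 only for 5, in replicate 1 only for 1 and absent for 1, beside 39.0% kept and 15.9% absent over all genes. ZEB2, a repressor with a CTBP-binding motif of its own, had its strongest peak 183040 bp upstream, with fold enrichments of 10.7 in unmodified cells, 5.39 in replicate 1 and 28.2 in replicate 2. At BCOR, a BCL6 corepressor, the values were 8.19, 9.08 and 17.2, and at ZNF217 they were 7.20, 4.21 and 5.74. The strongest peak at CTBP1 (5.20) was absent from both, as was its other one. That at CTBP2 itself (4.85) was called in replicate 2 at 6.63. Of the 56 peaks assigned to the list, 13 were kept (23.2%) and 14 absent (25%), beside 29.9% and 19.4% over all peaks.

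MECOM, which encodes EVI1 and is the source of the construct's repeats, lies at chr3:168801287-169381563 on the minus strand. In unmodified cells CTBP2 had 1 peak in it, at chr3:168865052-168865628 over an exon, with a fold enrichment of 6.20 and rank 5482. Replicate 1 had no peak in the gene. Replicate 2 had 2, of which chr3:168864910-168865609 covered the same exon with a fold enrichment of 15 and rank 958, and a second one of 5.79 lay in an intron at chr3:169149028-169149159. The EVI1 list of unmodified cells held the exon site at rank 181 with a fold enrichment of 27.3. The bases that encode PLDLS and 15 residues on either side are at chr3:168833287-168833391, in 10 annotated coding transcripts. No peak of the 3 CTBP2 lists overlapped them, and the nearest was 31660 bp away in unmodified cells, 31518 bp in replicate 2 and 654067 bp in replicate 1.

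Stem and progenitor transcription factors had a median rank of 1442 for their strongest peaks, against 5990 over all genes. These values are not matched for the number of peaks per gene. The 17 genes of this list with a peak had 109 peaks, against 16812 peaks for 7608 genes overall in the unmodified list. An unmodified peak was present for 17 of 19 genes, beside 7608 of 20176 protein-coding genes, GATA2 and RUNX1 being those without one nearest to them. The strongest was kept for 11 of the 17, in replicate 2 only for 5 and absent for 1, MEIS1, beside 39.0% kept and 15.9% absent over all genes. Over all their 109 peaks, 33 were kept (30.3%) and 17 absent (15.6%), close to the shares over all peaks. The strongest was near MYB, a regulator of hematopoietic progenitors, in an intron of AHI1 at chr6:135644187-135644688, with fold enrichments of 20.3 in unmodified cells, 12.3 in replicate 1 and 21.5 in replicate 2. Peaks in ETV6 (19.8, 8.49 and 15.2) and FLI1 (17.0, 13.9 and 10.7), both ETS factors, had lower unscaled fold enrichments in both 4xPLASS lists. In the lists of 16836, 6688 and 31310 peaks, the ETV6 peak ranked 137, 614 and 915 and the FLI1 peak 262, 99 and 2471. The fold enrichments of the peak in IKZF1, the Ikaros gene of lymphoid development, were 14.0, 7.73 and 25.5, and so highest in replicate 2. At TAL1, a bHLH factor of blood stem cells, the values were 14.9, 4.34 and 9.50, and at ERG they were 11.5, 5.73 and 5.64. HLF, a stem cell factor, had a promoter peak 104 bp from its TSS that replicate 2 alone called, at 5.23 against 5.33. Near MEIS1, 4 of 8 peaks were absent and 1 was kept.

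Neutrophil and monocyte genes kept the largest share of their peaks among the 8 lists, with 19 of 33 in both libraries (57.6%) and 1 absent (3.03%), beside 29.9% and 19.4% over all peaks. Of 23 genes, 14 had an unmodified peak, beside 7608 of 20176 protein-coding genes. The strongest was kept for 9 (64.3%, beside 39.0% over all genes), in replicate 2 only for 4 and in replicate 1 only for 1. An EVI1 peak lay at the strongest peak of 10 of the 14. CD14, the monocyte lipopolysaccharide coreceptor, had the strongest, 21507 bp from its TSS, with fold enrichments of 27.2 in unmodified cells, 17.8 in replicate 1 and 19.0 in replicate 2. At ITGAM, which encodes CD11b, they were 16.3, 5.09 and 19.3. KLF4, a zinc finger factor of monocytes, had 13.9, 6.85 and 24.2 and CEBPB, a C/EBP factor, had 12.7, 5.78 and 12.5. CSF1R, the receptor of macrophage colony-stimulating factor, had 12, 5.61 and 15. The peak 959 bp upstream of MPO, the myeloperoxidase gene, had 7.79, 6.85 and 12.1. CEBPA, a master factor of granulocytes, had its strongest peak 594 bp upstream at 5.09, called in replicate 2 at 4.24 and not in replicate 1. Replicate 1 had the lowest of the 3 values at all 6 kept sites named so far, but not at S100A8, a calprotectin subunit, with 5.40 in unmodified cells, 6.87 in replicate 1 and 9.41 in replicate 2. Values of replicate 1 were lower in general. All kept peaks had a median of 7.20 in unmodified cells, and consensus sites with an unmodified peak had medians of 5.25 in replicate 1 and 8.95 in replicate 2.

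Of 20 erythroid and megakaryocyte genes, 8 had an unmodified peak, beside 7608 of 20176 protein-coding genes. The strongest was kept for 3 (37.5%, beside 39.0% over all genes) and in replicate 2 only for 5. TFRC, the transferrin receptor, led with fold enrichments of 20.0, 11 and 15.4 in unmodified cells, replicate 1 and replicate 2. ITGA2B, the megakaryocyte integrin, had 4.50 in unmodified cells and 5.43 in replicate 2 alone.

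Of 15 progenitor surface and receptor genes, 12 had a peak, beside 7608 of 20176 protein-coding genes. The strongest was kept for 5, in replicate 2 only for 5 and absent for CD38 (4.77) and CXCR4 (6.0). ITGA4, an integrin of stem cell homing, had a promoter peak 373 bp upstream with 17.6 in unmodified cells, 5.80 in replicate 1 and 18.6 in replicate 2. CD44, a hyaluronan receptor, had 11 peaks, 6 of them kept and none absent, the strongest with 15.6, 6.01 and 17.8. At CD34, the progenitor surface marker, 5 of 7 peaks were kept, the strongest with 13.9, 4.37 and 27. KIT, the stem cell factor receptor, had 6 peaks with 1 kept. Over the list, 20 of 59 peaks were kept (33.9%) and 8 were absent (13.6%), beside 29.9% and 19.4% over all peaks. The strongest was kept for 41.7% of genes with a peak, beside 39.0% kept and 15.9% absent over all genes.

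Genes of the TGF-beta and SMAD pathway, whose signal EVI1 is known to repress, had a peak for 11 of 13, beside 7608 of 20176 protein-coding genes. The strongest was kept for 6 (54.5%, beside 39.0% over all genes) and in replicate 2 only for 5. SMAD2, a receptor-activated SMAD, had 22, 10.5 and 10.2 in unmodified cells, replicate 1 and replicate 2, and SMAD6, an inhibitory SMAD, had 19.2, 10.3 and 19.6. SMAD7, the other inhibitory SMAD, had the most peaks of the list, 17, with 6 kept and 2 absent. For the receptors, TGFBR1 had 10.9, 5.74 and 10.7, whereas TGFBR2 had 11 in unmodified cells, no peak in replicate 1 and 5.81 in replicate 2. SMAD3, the other SMAD of this branch, had 8.08 and then 5.61 in replicate 2 alone. Of the 62 peaks, 19 were kept (30.6%) and 11 absent (17.7%), close to the 29.9% and 19.4% over all peaks.

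Lymphoid genes had a peak for 9 of 16, with the strongest kept for 4, among them CD3E (10.6, 7.97 and 15.2) and the kinase gene LCK (8.66, 6.63 and 7.70), and absent for CD79B and TCF7. Of 86 cytosolic ribosomal protein genes, 29 had a peak, with the strongest kept for 10, in replicate 2 only for 16 and absent for 3. Over all protein-coding genes, 7608 of 20176 had a peak. The strongest peak was kept for 44.4% of lymphoid and 34.5% of ribosomal genes with a peak, beside 39.0% kept and 15.9% absent over all genes. Their strong peaks were distal, as at RPLP1 (24.6, 14.1 and 35.6, at 306378 bp) and RPL37A (19.6, 15.7 and 19.2), while those at their promoters were weak, as at RPL38 (4.77 in unmodified cells and 4.88 in replicate 2) and RPS20 (3.82, 4.23 and 5.37).

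Added sites were assigned to 9 genes of the lists. These were 2 of 16 EVI1 and CTBP corepressor genes, 2 of 19 stem and progenitor factors, 1 of 15 progenitor surface genes, 1 of 13 TGF-beta and SMAD genes and 3 of 86 ribosomal genes. The other lists had none. Over the genome there were 673 added sites for 20176 protein-coding genes. The added sites of the lists are named by location only, and an excess over all genes was not tested. MYB had one at its promoter, 79 bp from the TSS (chr6:135502357-135502625), with fold enrichments of 3.77 in replicate 1 and 6.76 in replicate 2, and another with 4.81 and 4.88 at 141569 bp, both with EVI1. The latter (chr6:135643923-135644100) lay within 1 kb of the kept MYB peak at chr6:135644187-135644688. Other promoter sites were at RPS19 (3.73 and 6.18), RPS27A (3.83 and 5.94) and RPS26 (4.20 and 5.65). That at RPS26 (chr12:56435677-56436022) lay within 1 kb of the unmodified peak at chr12:56435261-56435481. Such sites lie beside an existing CTBP2 peak. Distal ones lay near ZEB2 (5.44 and 6.93), ZNF217 (4.73 and 4.95), SMAD7 (4.81 and 5.73), IKZF1 (4.67 and 6.93) and NRP1 (5.20 and 7.03). Their ranks were 2614 to 5870 in replicate 1 and 7467 to 18204 in replicate 2, and all but the one near NRP1 were called in at least 1 untreated inducible CTBP2 list.

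Across the autosomes the kept share ran from 27% on chromosome 18 to 34.0% on chromosome 19 and the absent share from 17.8% on chromosome 11 to 22.2% on chromosome 9. On chromosome X, 21.8% of 284 peaks were kept, while replicate 2 held 79.2%, the same share as over all peaks.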

How the data were processed

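CTBP2 and EVI1 ChIP-seq peak lists of MUTZ3 and MOLM1 cells were used as deposited. Per the study's methods and the submitters' processing notes, the authors aligned reads to hg19 with Bowtie 1.1.1 and called peaks for each library with MACS2 2.1.2 at default settings against an input. Each deposited peak has a fold enrichment (a ratio over local background), a −log10 p and a −log10 q. The lists hold no read counts. Another 4 lists, of dox-treated cells, were not used here.

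Ranks were taken by fold enrichment within each list. Overlaps were counted in Python 3.11.15 with numpy 2.4.6 and pandas 2.3.3, tested on simulated lists and checked against bedtools 2.31.1. A site's gene is the protein-coding gene of GENCODE 44 (lifted to GRCh37) with the TSS nearest to the summit; sites off chromosomes 1 to 22, X and Y (24, 12 and 45 peaks in the unmodified list and replicates 1 and 2) were left out of gene, TSS and sequence summaries. Sequence came from GRCh37 with pysam 0.24.0. Shares of peaks have 95% Wilson intervals from scipy 1.17.1.

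With 1 unmodified and 2 4xPLASS libraries, no test was run. The labels number the 4xPLASS libraries but do not say that they came from separate cultures. Named were the 10 strongest kept, absent and best-ranked added sites, genes with 5 or more peaks of which all or none were kept (up to 10 each), the genes of 8 lists by their strongest unmodified peak, and MECOM. The strongest peak of replicate 1 and arrays of CAGGTG were chosen after their values were seen. The members, lists and alternatives were chosen with earlier results of these data known. The alternatives were other thresholds, overlap rules, equal list sizes, promoter definitions and each 4xPLASS library alone.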

Additional observations from a re-analysis of the deposited data

How the results depend on the processing

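Shares have no direction to reverse, and no ratio or difference among the 9 results changed its direction when recomputed. Of the 77 recomputed values, 52 moved by less than the SD between the values from each 4xPLASS library alone. That SD was wide for the shares, at 33.9 percentage points for kept and absent and 27.3 for added. The bins by strength, in which the promoter difference turned, were not among these alternatives. With 1 library at a time, the kept share ran from 31.3% to 79.2%, the absent share from 20.8% to 68.7%, the added share from 19.0% to 57.7%, the ratio of kept to absent medians from 1.19 to 1.42 for fold enrichment and 1.43 to 1.61 for width, the promoter difference from −4.30 to −1.15 points (kept minus absent) and 5.42 to 8.44 (added minus kept), and the EVI1 difference from 30.6 to 44.3 and −41.6 to −33.5. Replicate 1, the shorter list, decides the kept share, which was 79.2% without it, and replicate 2 the absent share, which was 68.7% without it; the added share was 57.7% without replicate 1 and 19.0% without replicate 2.

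With all CTBP2 lists cut to 6688 peaks, kept peaks were 1.34 times as strong and 1.68 times as wide as absent ones, and the EVI1 differences were 41.0 and −8.51 points, with a kept share of 45.0%. The strength ratio was 3.04 by −log10 q. The promoter difference of kept and absent peaks was −6.59 at a −log10 q of at least 5, −8.94 at a fold enrichment of at least 5, −6.75 with an overlap of 50% of the shorter interval, −7.25 by summits within 200 bp and −6.63 with the TSSs of all protein-coding transcripts, an alternative chosen after seeing the data. That of added and kept sites was 6.35 at a fold enrichment of at least 5 and 12 with all transcripts. The EVI1 difference of added and kept sites was −20.4 at a −log10 q of at least 5 and −21.5 at a fold enrichment of at least 5. The cause of these shifts was not tested. The unmodified cells have 1 library, so none could be left out there. No paired analysis was possible because the unmodified cells have 1 library and no test was run. Unknown depth limits every statement on peaks that were not called.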
